A study of Mus musculus with 2 samples.

Results

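The genes described here are the ubiquitin-conjugating enzyme genes of the mouse, taken as every annotated gene with at least 1 read whose symbol begins with Ube2, leaving out symbols that mark a pseudogene. The rule used names alone and gave 32 genes of the 14198 annotated genes with reads. All 32 are annotated as protein coding and all had reads in both libraries. Of the 37 protein-coding genes with such a name in the annotation, GENCODE M21 on mm10, the other 5, Ube2d2b, Ube2dnl1, Ube2dnl2, Ube2ql1 and Ube2u, had no reads, which allows up to 3.88 CPM (counts per 1000000 reads on annotated genes) in replicate 1 and 4.15 CPM in replicate 2 at 3 counts. Ube2cbp carries the name because it binds Ube2c and is not itself a conjugating enzyme.

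Ubiquitin is joined to proteins in a relay. An activating enzyme (E1) loads it onto the cysteine of a conjugating enzyme (E2), and a ligase (E3) brings the loaded E2 to the substrate. The E2 often sets which lysine of ubiquitin links a chain, and with it whether the protein goes to the proteasome or takes part in signalling or repair, while a few E2s carry the ubiquitin-like proteins such as NEDD8 or ISG15 instead. In skeletal muscle this relay feeds the proteasome that breaks down contractile proteins during wasting.

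The cells were C2C12, an established myoblast line that was first grown from the thigh muscle of C3H mice after injury. Total RNA was read by long-read sequencing in 2 libraries, labelled as biological replicates 1 and 2 of 1 group with no treatment, and the labels do not say whether the cells were dividing or fusing. Nothing in the labels says that the libraries came from separate cultures, and every p-value sets the difference between 2 libraries, which may be technical, against counting error alone. Depth was 773408 and 722647 reads on annotated genes. The muscle markers Des, Cdh15, Myog, Myod1, Myf5 and Mymk were all read, with Myf5 at 278 CPM in replicate 1 and 83.0 CPM in replicate 2, while Pecam1, Ptprc, Krt18, Adipoq and Mbp had 0 or 1 read in each library.

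Several of the genes were read both with and without a coding exon. Printed first are the skipped exons that are wholly coding and a multiple of 3 bases long, and a shortened exon of Ube2w. A skipped exon of Ube2f, with 134 bases of which 118 are coding, is not a multiple of 3 and is not printed. Ube2v1 and Ube2v2, paralogues that lack the catalytic cysteine and pair with Ube2n to build chains linked through lysine 63, each skip their exon 3 of 4. In both genes that exon is 126 bases or 42 codons, wholly coding, and follows an exon of 149 bases. On mm10 it lies on the minus strand at chr2:167610304-167610429 in Ube2v1 and at chr16:15577015-15577140 in Ube2v2. Capitals mark the 31 bases that differ, and 95 of 126 bases, 75.4%, are identical.
Ube2v1 exon 3: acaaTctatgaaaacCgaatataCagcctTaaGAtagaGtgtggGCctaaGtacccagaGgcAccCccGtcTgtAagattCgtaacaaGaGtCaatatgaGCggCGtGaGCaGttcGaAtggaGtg
Ube2v2 exon 3: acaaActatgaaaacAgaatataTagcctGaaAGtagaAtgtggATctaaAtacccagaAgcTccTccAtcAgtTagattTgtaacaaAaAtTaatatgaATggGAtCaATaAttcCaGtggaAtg

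A like exon was skipped in another related pair. Ube2l3, an E2 that passes ubiquitin to ligases with a cysteine of their own, and Ube2l6, the E2 for ISG15, each skip exon 2 of 4, which is 96 bases or 32 codons in both and stands before an exon of 187 bases. It lies at chr16:17176412-17176507 on the minus strand in Ube2l3 and at chr2:84802779-84802874 on the plus strand in Ube2l6. Capitals again mark the differing bases, here 53 of 96, so that 43 bases or 44.8% are identical.
Ube2l3 exon 2: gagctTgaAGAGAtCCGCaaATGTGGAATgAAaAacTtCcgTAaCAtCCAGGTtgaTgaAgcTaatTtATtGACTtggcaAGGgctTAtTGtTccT
Ube2l6 exon 2: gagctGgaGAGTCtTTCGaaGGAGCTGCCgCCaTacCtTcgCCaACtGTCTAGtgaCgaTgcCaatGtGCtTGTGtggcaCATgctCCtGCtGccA

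In Ube2j1, an E2 anchored in the membrane of the endoplasmic reticulum, the skipped exon is number 7 of 8, at chr4:33045080-33045199 on the plus strand, with 120 bases or 40 codons. In Ube2w, which attaches ubiquitin to the amino terminus of proteins, a second acceptor leaves out the first 79 bases of exon 4 of 6, at chr1:16585353-16585431 on the minus strand, and 79 is not a multiple of 3. Capitals mark the bases left out, with 15 spliced bases in lower case on either side.
Ube2j1 exon 7: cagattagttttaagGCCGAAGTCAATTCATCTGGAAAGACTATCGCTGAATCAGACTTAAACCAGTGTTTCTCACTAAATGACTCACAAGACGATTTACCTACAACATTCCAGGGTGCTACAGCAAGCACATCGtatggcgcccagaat
Ube2w exon 4 start: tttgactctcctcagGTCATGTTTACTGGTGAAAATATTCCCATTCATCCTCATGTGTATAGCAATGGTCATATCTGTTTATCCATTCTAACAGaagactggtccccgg

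The exons differed widely in how often they were skipped. Counting reads that carry the skipping intron against reads that carry both introns around the exon, Ube2j1 exon 7 was skipped in 23 reads against 67 in replicate 1 and in 24 against 57 in replicate 2, or 25.6% (Wilson 95% interval 17.7 to 35.4) and 29.6% (20.8 to 40.3). For Ube2l6 exon 2 the counts were 4 against 37 and 8 against 56, or 9.76% (3.86 to 22.5) and 12.5% (6.47 to 22.8). Its relative Ube2l3 had 2 against 145 and 3 against 132, or 1.36% (0.374 to 4.82) and 2.22% (0.759 to 6.33). The intervals of the pair overlapped in replicate 1 and did not overlap in replicate 2.

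Ube2v2 exon 3 was skipped in 7 reads against 93 and in 4 against 82, or 7.0% (3.43 to 13.7) and 4.65% (1.82 to 11.4), and Ube2v1 exon 3 in 9 against 395 and 3 against 393, or 2.23% (1.18 to 4.18) and 0.758% (0.258 to 2.20). The intervals of this pair overlapped in both libraries. The shortened exon 4 of Ube2w was read 10 times against 72 and 8 against 57, or 12.2% (6.76 to 21.01) and 12.3% (6.37 to 22.5). The Ube2f exon that is not printed was skipped in 1 read against 34 and in 4 against 50. That was 2.86% (0.506 to 14.5) and 7.41% (2.92 to 17.6), and its skipping intron is not annotated. The skipping introns of Ube2v1, Ube2v2, Ube2l3 and Ube2j1 and the second acceptor of Ube2w are in the annotation, in Ube2v1-201, Ube2v2-202 and Ube2v2-204, Ube2l3-203, Ube2j1-203 and Ube2w-206, and that of Ube2l6 is in none of its annotated transcripts. These introns were taken up after their counts were seen, as alternatives to the introns of the most used transcript with at least 5 reads summed and at least 1 in each library. That rule gave 44 introns in 14 genes, of which 31 are annotated, and intervals cover counting error only.

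**Figure D1:**
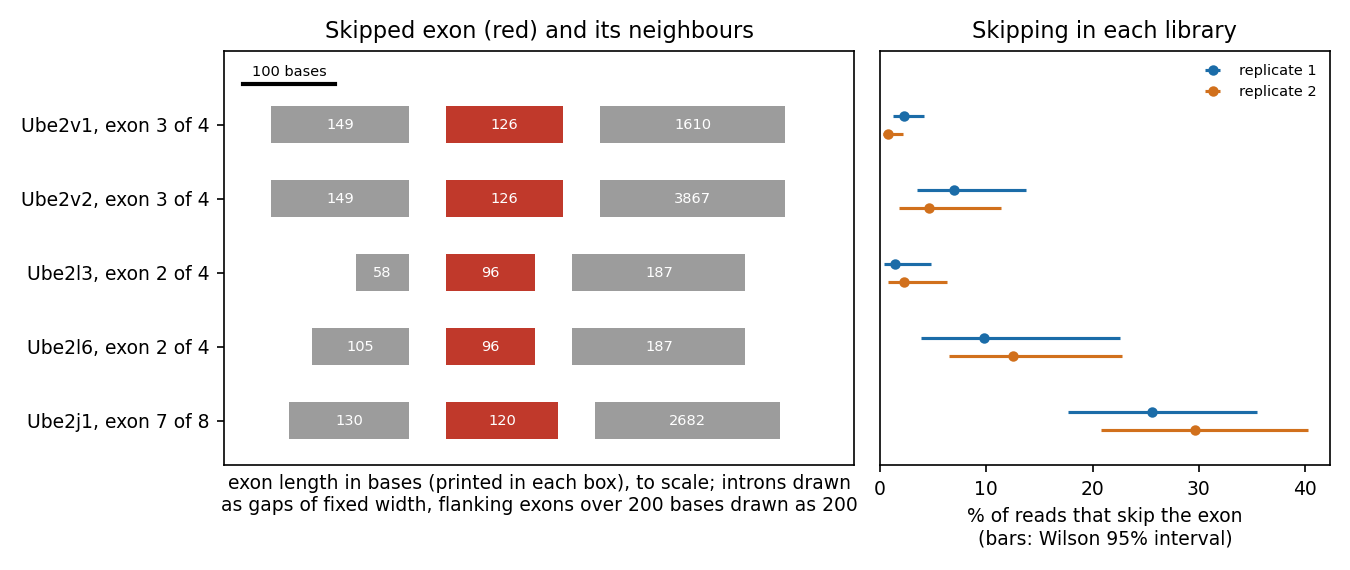
Exons of 5 Ube2 genes that are wholly coding, a multiple of 3 bases long and skipped in some reads. The left panel draws the skipped exon in red between its neighbours in grey, with lengths in bases printed in each box. The right panel plots the percent of reads that skip it in each library with Wilson 95% intervals: Ube2j1 sits at 25.6% and 29.6%, Ube2l6 near 10%, and Ube2v1 and Ube2l3 under 3%.

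As a group the genes had a higher median level than all annotated genes with reads. They took 3200 and 3038 reads, which sum to 4138 CPM in replicate 1 and 4204 CPM in replicate 2, a mean of 4171 ± 47.0 CPM (SD, n = 2). The median over the 32 genes was 72.3 CPM beside 13.5 CPM over all 14198 genes with reads. Those 14198 were not limited to protein-coding genes, as the 32 are. A long read stands for 1 transcript molecule, so these levels were not divided by length. Whether long transcripts were captured less often was not tested. Levels in single libraries ran from 605 CPM down to 1.38 CPM, and 12 genes had a mean of at least 100 CPM and 3 were under 10 CPM.

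**Figure D2:**
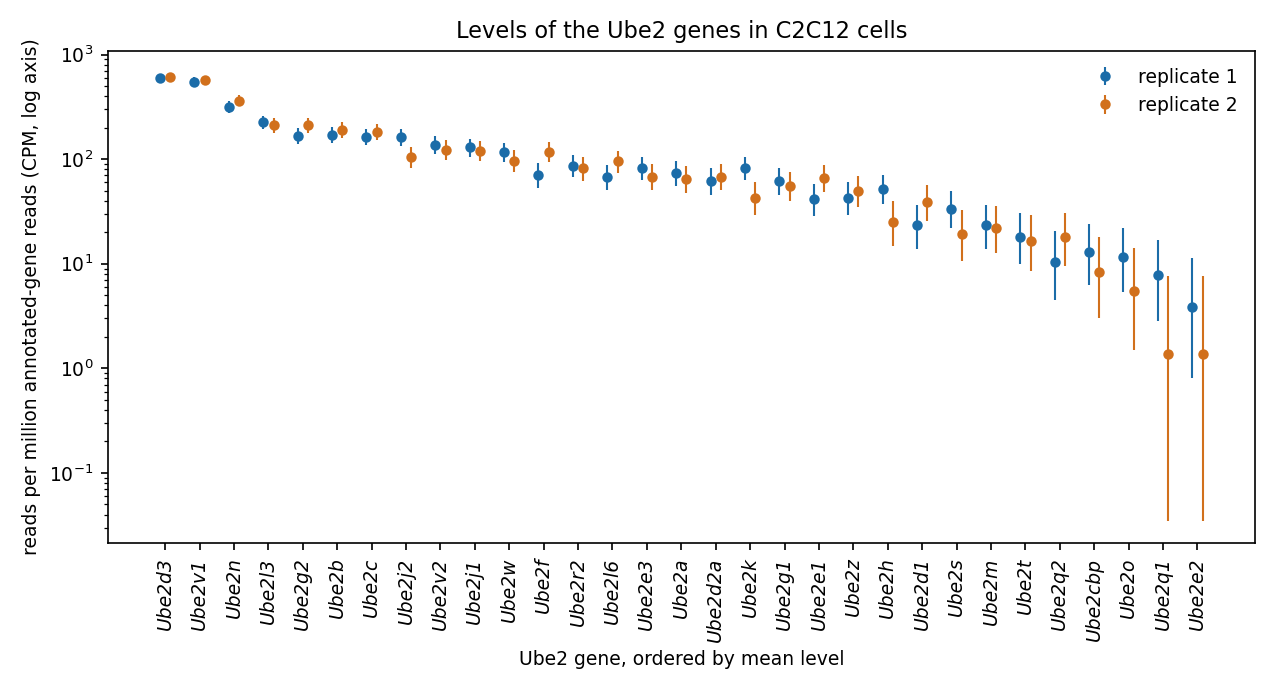
Level of 31 Ube2 genes in each library, in CPM over annotated-gene reads on a log axis, with exact Poisson 95% intervals. Ube2d3, Ube2v1 and Ube2n stand above the rest of those drawn, and Ube2o, Ube2q1 and Ube2e2 lie under 10 CPM on average.

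Ube2d3, Ube2v1 and Ube2n were each at 315 CPM or more in both libraries. The order of Ube2d3 and Ube2v1 could not be told, since their Poisson intervals overlapped in both libraries, and Ube2n lay below both genes in each library.

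The Ube2d family works with many RING ligases and often attaches the first ubiquitin to a substrate. Ube2d3 (chr3:135438149-135468198, plus strand) was the most read gene of the group, with 459 reads in replicate 1 and 437 in replicate 2, or 593 and 605 CPM (mean 599 ± 7.95, SD, n = 2). Its relatives were far lower: Ube2d2a had 48 and 49 reads (64.9 ± 4.06 CPM) and Ube2d1 18 and 28 (31.0 ± 10.9 CPM). The coding sequences of Ube2d3 and Ube2d2a, of 441 bases each, are 86.4% identical and those of Ube2d3 and Ube2d1 77.3%. The rest of the transcripts was not compared, and whether reads of one were placed on another was not tested. The transcribed pseudogene Ube2d-ps had 31 and 27 reads and was not counted.

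The Ube2e family, made of a Ube2d-like core with a longer amino end, was lower and was carried by a pair of genes. Ube2e3 had 64 and 49 reads (75.3 ± 10.6 CPM) and Ube2e1 32 and 48 (53.9 ± 17.7 CPM), so that they differed in replicate 1 and were level in replicate 2. Ube2e2 had 3 reads and 1 read, the lowest of the 32. At that depth a level of Ube2e2 could not be told from the limit that 3 counts allow.

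Genes for chains linked through lysine 63, a signal in DNA damage tolerance and inflammation rather than degradation, formed the highest functional group, at 1003 and 1054 CPM or 24.3% and 25.1% of the reads. Ube2n (chr10:95515145-95545657, plus strand), which holds the catalytic cysteine, had 244 and 261 reads, or 315 and 361 CPM (338 ± 32.3). Ube2v1 (chr2:167607638-167632095, minus strand) had 426 and 412 reads, or 551 and 570 CPM (560.5 ± 13.7), and Ube2v2 106 and 89 (130.1 ± 9.83 CPM). The partner without a catalytic cysteine, Ube2v1, was thus read more than Ube2n in both libraries.

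Both levels have a limit from near copies. The annotated locus Gm20431 joins Ube2v1 to its neighbour Tmem189 and took 18 and 26 reads. Of these, 18 and 25 carried a Ube2v1 intron and none carried an intron outside Ube2v1. The pseudogene Ube2n-ps1 is identical to the coding sequence of Ube2n over all 456 bases and had 0 and 7 reads.

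The mouse counterparts of yeast Rad6, Ube2b and Ube2a, act with Rad18 on the replication clamp and with Rnf20 on histone H2B. Ube2b had 131 and 138 reads (180.2 ± 15.3 CPM) and Ube2a, on the X chromosome, 57 and 47 (69.4 ± 6.12 CPM). Their coding sequences are both 456 bases and 77.6% identical. Ube2b was above Ube2a in both libraries with intervals that did not overlap.

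For the anaphase-promoting complex, the ligase that ends mitosis, Ube2c starts the chain and Ube2s extends it through lysine 11. Ube2c had 126 and 131 reads (172 ± 13.0 CPM) and Ube2s 26 and 14 (26.5 ± 10.1 CPM). The starter gene was thus read at a higher level than the extender in both libraries.

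At the endoplasmic reticulum, where misfolded proteins are pulled out and degraded, 4 members serve. Ube2g2 had 128 and 152 reads (188 ± 31.7 CPM), Ube2j2 125 and 76 (133 ± 39.9 CPM), Ube2j1 100 and 87 (125 ± 6.30 CPM) and Ube2g1 48 and 40 (58.7 ± 4.75 CPM). Ube2j1 and Ube2j2 are held in the membrane, and Ube2g2 is brought there by partners such as Aup1. Together the 4 genes gave 518 and 491 CPM, and Ube2g1 was lowest in both libraries.

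The ubiquitin-like protein NEDD8 is carried by Ube2f, with 54 and 85 reads (93.7 ± 33.8 CPM), and by Ube2m, with 18 and 16 (22.7 ± 0.801 CPM). Ube2f serves the cullin Cul5 and Ube2m the other cullins, and Ube2f was read more than Ube2m in both libraries. Ube2l6 had 52 and 69 reads (81.4 ± 19.97 CPM), and Isg15, the protein it carries, named here after its count was seen, had 5 and 0.

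The remaining members have more particular partners. Ube2l3 had 174 and 153 reads (218 ± 9.37 CPM). Ube2w had 90 and 70 (107 ± 13.8 CPM). Ube2r2, which works with cullin ligases, had 67 and 59 (84.1 ± 3.53 CPM).
Ube2k, which builds chains linked through lysine 48, had 63 and 31 (62.2 ± 27.3 CPM), so that replicate 1 was the higher. Ube2z, which is loaded by the activating enzyme Uba6, had 33 and 36 (46.2 ± 5.05 CPM). Ube2h, the partner of the CTLH ligase, had 40 and 18 (38.3 ± 19.0 CPM). Of these, Ube2k and Ube2h differed most between the libraries in relative terms.
Ube2t, the E2 of the Fanconi anaemia repair pathway, had 14 and 12 reads (17.4 ± 1.06 CPM). The Ube2q genes have a long amino end, and Ube2q2 had 8 and 13 reads (14.2 ± 5.41 CPM) and Ube2q1 6 and 1 (4.57 ± 4.51 CPM). Ube2cbp had 10 and 6 (10.6 ± 3.27 CPM). Ube2o, a large protein that is E2 and E3 in one, had 9 and 4 (8.59 ± 4.31 CPM).

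Reads of these genes lay on complete models at a higher share than reads of all annotated genes. Complete models, the annotated class and the unannotated classes built from known (NIC) or new (NNC) splice sites, held 90.3% and 94.3% of their reads, beside 84.0% and 88.3% over all annotated genes. Models that match part of an annotated transcript (ISM) held 4.53% and 2.07%, beside 10.6% and 8.43%, and single-exon or otherwise unspliced models (Genomic) 5.19% and 3.59%, beside 5.38% and 3.23%. These shares are pooled over reads, so the most read genes weigh most in them. A complete class is no proof that the read reached both ends of its transcript.

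Several members went against that pattern. Of the Ube2h reads, 2 of 40 and 0 of 18 were complete, and 37 in replicate 1 and 17 in replicate 2 were single-exon models inside the last exon of Ube2h-202. Ube2z had 3 of 33 and 9 of 36 complete, with 24 single-exon reads inside the last exon of Ube2z-201 in replicate 1 and a single-exon model of 26 reads in replicate 2 that reaches past the annotated end of the gene. For Ube2m the counts were 5 of 18 and 7 of 16, with 8 and 5 single-exon reads in a last exon. Ube2o and Ube2q1 had no complete read. Levels of these 5 genes therefore rest mostly on reads outside complete models, and none of the 5 had the 20 complete reads in each library needed to compare isoforms. Complete shares under those of all annotated genes in both libraries were also seen in Ube2s (61.5% and 78.6%) and Ube2t (71.4% and 66.7%). The same held for Ube2q2 (50% and 84.6%) and Ube2r2 (79.1% and 88.1%). Ube2e2 had 0 of 3 and 1 of 1 complete.

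**Figure D3:**
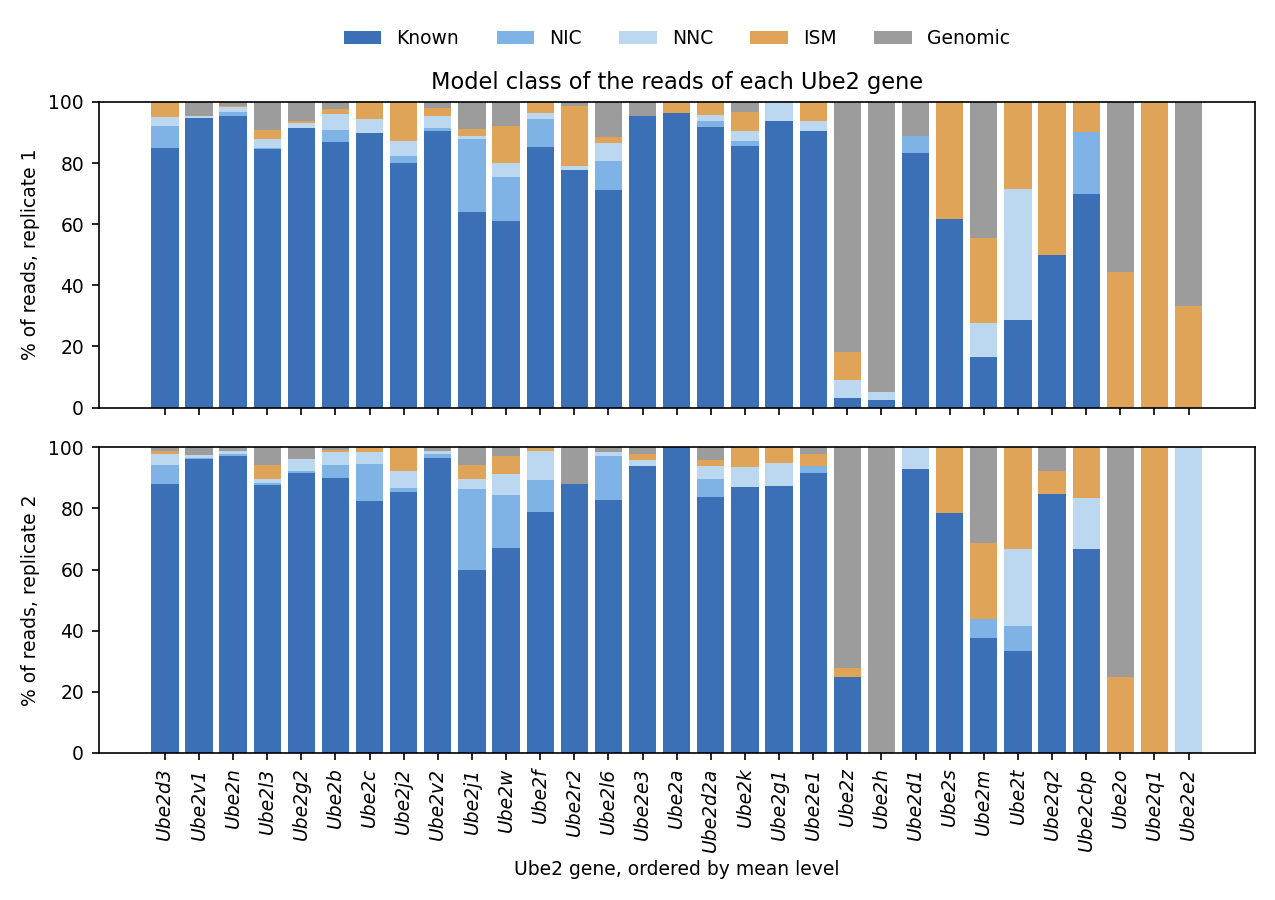
Share of the reads of 31 Ube2 genes in each model class, replicate 1 above and replicate 2 below, in percent. Annotated (Known) models fill most bars, while Ube2z and Ube2h are mostly Genomic in both libraries and Ube2q1 is wholly ISM.

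Most members used a single transcript. Of the 21 genes with at least 20 complete reads in each library, the most used transcript was an annotated one in all 21, and in 16 it held over 80% of the complete reads in both libraries. Taking a transcript as used at 10% or more of complete reads in both libraries, 17 genes used 1 and 4 genes used 2, namely Ube2d3, Ube2f, Ube2j1 and Ube2j2.

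In Ube2d3 and Ube2f the used transcripts differ outside the coding sequence. Ube2d3-212 held 218 of 436 complete reads in replicate 1 and 220 of 427 in replicate 2, or 50% and 51.5%, and Ube2d3-202 held 24.3% and 22.7%. Their first exon ends at donors 166 bases apart, and 5 annotated transcripts with reads share the same coding sequence of 441 bases and together held 88.8% and 88.5%. Ube2f-204 held 32 of 52 and 45 of 84, or 61.5% and 53.6%, and Ube2f-210, which uses an acceptor 45 bases upstream, 17.3% and 11.9%. Both encode the same 555 bases, as do 4 transcripts of Ube2f that held 88.5% and 78.6%.

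In Ube2j1 and Ube2j2 the used transcripts differ in coding bases. Ube2j1-202, with 954 coding bases, held 64 of 89 and 52 of 78 complete reads, or 71.9% and 66.7%. A chain of introns that leaves out exon 7, printed above, and matches no annotated transcript as a whole held 22 and 22 reads, or 24.7% (Wilson 95% interval 16.9 to 34.6) and 28.2% (19.4 to 39.0). No reading frame was derived for that chain. In Ube2j2, Ube2j2-202 held 52 of 109 and 36 of 70, or 47.7% and 51.4%, with 777 coding bases, and Ube2j2-205 held 19.3% and 27.1%, with 813. Ube2j2-213, which encodes the shorter form, held 17.4% and 7.14%, and the shorter form summed to 65.1% and 58.6%.

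**Figure D4:**
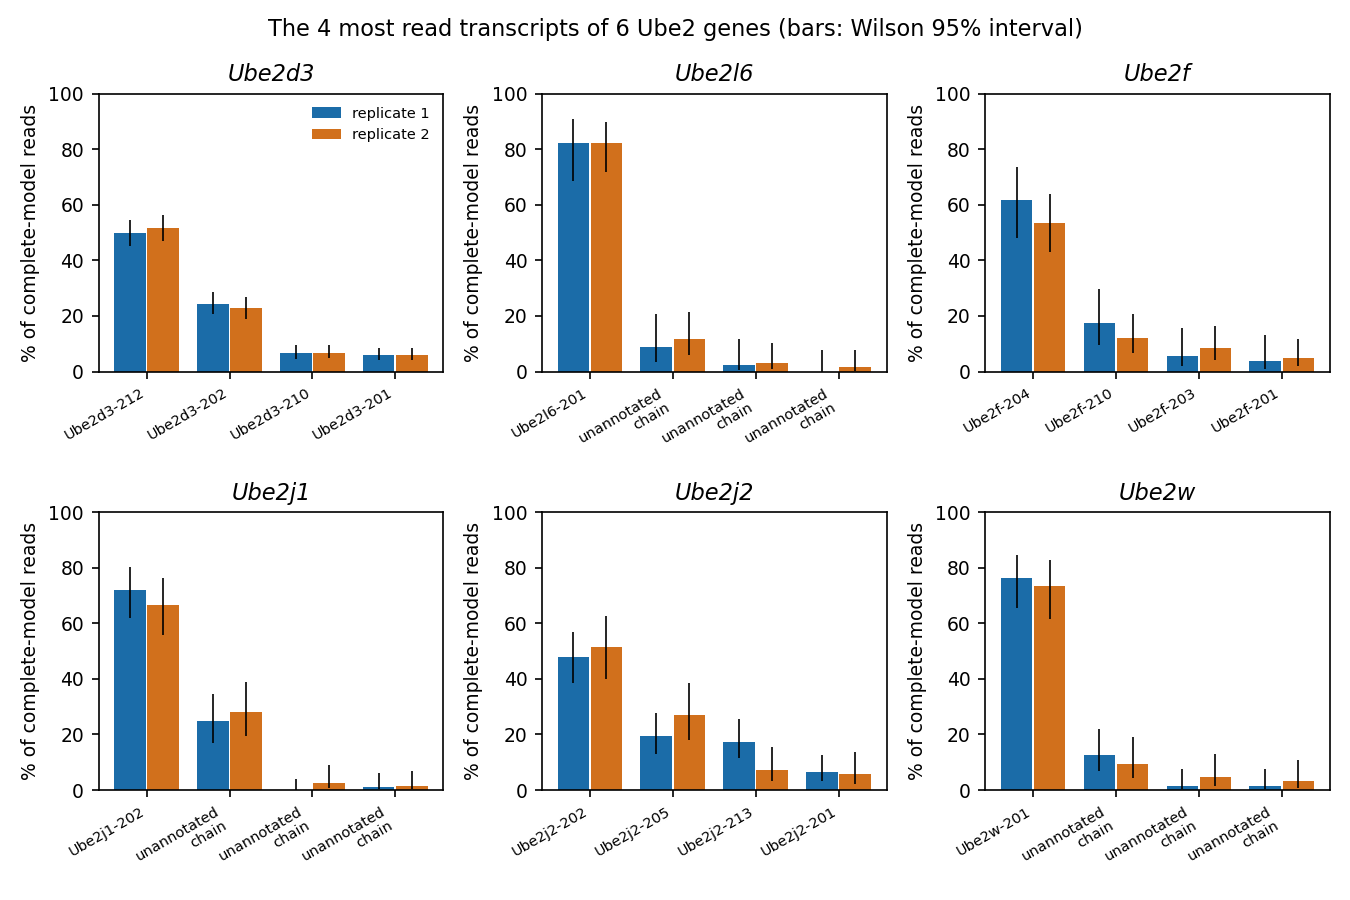
Percent of complete-model reads on the 4 most read transcripts of 6 Ube2 genes in each library, with Wilson 95% intervals. Ube2d3, Ube2f, Ube2j1 and Ube2j2 spread over 2 used transcripts each, and Ube2l6 stays near 82% on Ube2l6-201.

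Unannotated structures were many and mostly rare. The members had 187 unannotated structures with several exons, 8 reached 5 reads in a library, and 7 of these, in 6 genes, were also seen in the other library. Beside the Ube2j1 chain, the highest were a Ube2d3 chain that gains 6 bases at its splice sites against the most used transcript (10 and 7 reads), the Ube2w chain that loses 79 there (9 and 6) and a Ube2c chain with another first intron (5 and 14). Next came a Ube2d3 chain that gains 4 bases (6 and 5) and the Ube2l6 chain without exon 2 (4 and 8). In Ube2d3 the donors placed 4 bases downstream were seen at 2 exons, in 14 and 15 reads and in 5 and 4 reads, and neither intron is annotated.

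Isoform use did not pass the test of the difference between libraries in any member. Reads on the most used transcript and on all other complete models were compared between libraries by Fisher's exact test (two-sided), adjusted after Benjamini-Hochberg over 4011 genes. By it 0 of 21 members were called, beside 0.0997% of all genes tested. The unadjusted p was under 0.05 in 2 of the 21, beside 4.16% of all genes tested. In Ube2c the most used transcript, Ube2c-202, went from 113 of 119 to 107 of 129 complete reads (p = 0.00422 by Fisher's exact test, adjusted p = 0.642). In Ube2r2, Ube2r2-201 went from 45 of 53 to 52 of 52 (p = 0.00588 by Fisher's exact test, adjusted p = 0.711). With ISM models counted as transcripts of their own and Genomic models left out, Ube2r2 was called (adjusted p = 0.000125, Fisher's exact test). Of all genes tested in that way, 2.78% were called. All 13 ISM reads of Ube2r2, those matching part of a transcript, were in replicate 1. Its Genomic reads were 1 and 7, and the 7 in replicate 2 lay inside the last exon of Ube2r2-201.

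Levels of the members did not differ between the libraries by more than the test allowed. Of the 32 genes, 30 had at least 10 reads summed and were tested. The reads of each gene were split between the libraries against the split of the totals by an exact binomial test (two-sided), with p-values adjusted after Benjamini-Hochberg over 8940 genes. None of the 30 was called, beside 3.98% of all genes tested, 1.39% higher in replicate 2 and 2.60% higher in replicate 1. The unadjusted p was under 0.05 in 6 of 30, beside 13.9% of all genes tested. The median log2 ratio of replicate 2 over replicate 1 was -0.08 over the members and 0.06 over all genes tested, with 14 members higher in replicate 2 and 16 in replicate 1 (11 and 19 with DESeq2 size factors).

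Ube2f, Ube2j2 and Ube2k had the smallest adjusted p-values of the members. Ube2f went from 69.8 to 118 CPM, a log2 ratio of 0.75 with a counting SE of 0.25 (adjusted p = 0.0642, exact binomial test). Ube2j2 went from 162 to 105 CPM, a log2 ratio of -0.62 with an SE of 0.21 (adjusted p = 0.0663, exact binomial test), and Ube2k from 81.5 to 42.9, -0.91 with an SE of 0.31 (adjusted p = 0.0749, exact binomial test). The Poisson intervals of the libraries did not overlap in these 3 of the 30 tested members, beside 5.38% of all genes tested. Ube2h, at 51.7 and 24.9 CPM, gave -1.03 with an SE of 0.40 (adjusted p = 0.128, exact binomial test). Ube2j2 and Ube2k were called with edgeR TMM sizes, beside 4.34% of all genes tested, and with DESeq2 size factors, beside 4.27%. Both DESeq2 factors were 1, so that the 2 depths were not corrected for there. Among genes with at least 50 reads, 23 members were tested and Ube2f, Ube2j2 and Ube2k were called, beside 8.57% of all genes tested. With no read filter, 0 of 32 members were called by the exact binomial test, beside 2.12% of all genes tested. With complete models alone it called 0 of 28, beside 4.36%. The unadjusted p was under 0.05 in 6 and 4 members.

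**Figure D5:**
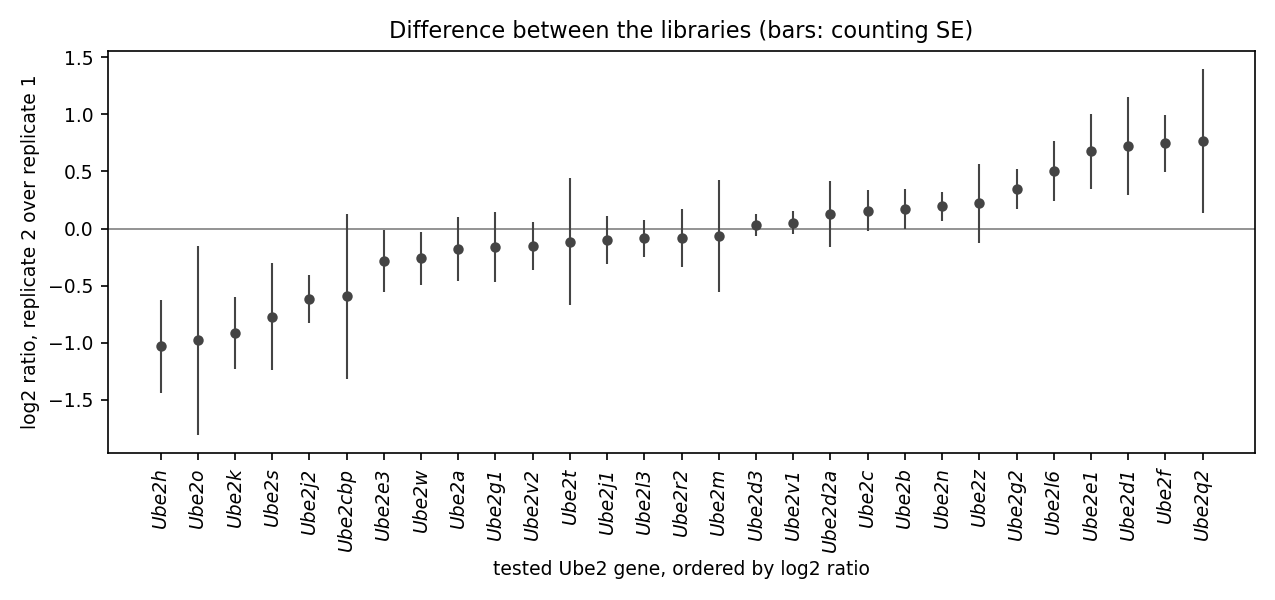
Log2 ratio of replicate 2 over replicate 1 for 29 tested Ube2 genes, ordered by the ratio, with counting standard errors as bars. The values run from -1.03 in Ube2h to 0.77 in Ube2q2, and the much read genes Ube2d3 and Ube2v1 lie within 0.05 of 0.

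The other steps of the relay were read from lists of genes picked by function. Of 9 E1 genes, 8 were read in both libraries, led by the SUMO enzyme Sae1 (212 and 245 reads), the main ubiquitin enzyme Uba1 (135 and 154) and the SUMO enzyme Uba2 (107 and 131). The 7 tested E1 genes were all higher in replicate 2, with a median log2 ratio of 0.29 beside 0.06 over all genes tested, of which 54.7% were higher in replicate 2. None of the 7 was called by the exact binomial test, beside 3.98% of all genes tested. An unadjusted p under 0.05 was seen in 3, beside 13.9% of all genes tested. Uba6, named here after its count was seen because it loads Ube2z, had no reads. The 9 E1 genes summed to 997 ± 161 CPM (SD, n = 2), beside 4171 CPM over the 32 Ube2 genes.

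Genes for ubiquitin and its relatives were the most read of the pathway, at 9579 ± 638 CPM over 18 genes (SD, n = 2). The polyubiquitin gene Ubb had 1672 and 1586 reads and was not called. Called higher in replicate 1 by the exact binomial test were 4 of 17 tested genes, beside 2.60% of all genes. Among them were Rps27a (820 and 619 reads, adjusted p = 0.0033), which encodes ubiquitin fused to a ribosomal protein, and Fau (719 and 486, adjusted p = 4.0e-06), which encodes a ubiquitin-like protein fused to one.
Map1lc3b, which marks autophagosomes, was called higher in replicate 2 (390 and 452, adjusted p = 0.048), beside 1.39% of all genes tested. Its call was lost with TMM sizes (adjusted p = 0.113), with DESeq2 size factors (0.321), with no read filter (0.076) and with complete models alone (0.128).

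Conjugating enzymes and variants with other names were fewer. None of the 8 was called by the exact binomial test, beside 3.98% of all genes tested. The unadjusted p was under 0.05 in 2, beside 13.9% of all genes tested. Tsg101, a variant without a catalytic cysteine that sorts endosomes, led with 185 and 179 reads, followed by the UFM1 carrier Ufc1 (99 and 82), the variant Aktip (78 and 76) and the autophagy enzyme Atg3 (65 and 87). Cdc34, the close relative of Ube2r2, was named after its count was seen and had 12 and 3 reads beside 67 and 59 for Ube2r2.

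Among 55 E3 ligases and adaptors known to work with the members, 53 were read in both libraries and 41 were tested. The highest were the cullin adaptor Skp1a (582 and 455 reads), the RING protein of cullin ligases Rbx1 (416 and 359), the chaperone-linked ligase Stub1 (358 and 359) and Cdc20 (296 and 331), which activates the complex that Ube2c and Ube2s serve. Nedd4, a ligase with a cysteine of its own, was the 1 gene called, higher in replicate 2 with 198 and 260 reads (adjusted p = 0.0124, exact binomial test), and not with DESeq2 size factors (adjusted p = 0.085). Of all genes tested, 3.98% were called in either direction and 1.39% were called higher in replicate 2. Skp1a was called higher in replicate 1 under TMM sizes (adjusted p = 0.0307) and DESeq2 size factors (adjusted p = 0.0039). Of the ligases known from muscle wasting, both named after their counts were seen, Fbxo32 had 28 and 28 reads and Trim63 2 and 0.

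Of 17 genes that bind the members or reverse their work, 16 were read in both libraries and 15 were tested. None was called by the exact binomial test, beside 3.98% of all genes tested, and 1 had an unadjusted p under 0.05, beside 13.9%. Cops6, a subunit of the complex that removes NEDD8 from cullins, had 264 and 245 reads. Otub1, which binds loaded Ube2n and Ube2d enzymes and holds them back, had 208 and 181. Aup1, the partner of Ube2g2, had 179 and 181, and the proteasome-bound Uchl5 100 and 94. These 4 ran from 129 CPM for Uchl5 to 341 CPM for Cops6, within the range of the 12 most read Ube2 genes.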

How the data were processed

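Long-read RNA sequencing of C2C12 cells gave 2 libraries of 1 group. Per the file headers, each deposited value is a raw read count of 1 transcript model, not normalised. The authors annotated models on mm10 against GENCODE M21, per the file headers. The sources used here name no aligner and no filter.

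Counts of all models of a gene were summed, and CPM were taken over annotated-gene reads. Unannotated models were matched between libraries by exact intron chain. Poisson intervals of counts are exact, and those of shares are Wilson 95% intervals, both covering counting error only. Log2 ratios used an offset of 0.5 reads. Tests (SciPy 1.17.1) were the exact binomial and Fisher's exact tests with Benjamini-Hochberg adjustment at 0.05 over all genes. With 1 group of 2 libraries there were no conditions to compare. A test of 1 library against the other has no replicates on either side, so no count model was fitted. The tests were checked on counts simulated with counting error and no other spread between libraries. That check does not cover any other spread. edgeR 4.0.16 and DESeq2 1.42.0 gave alternative library sizes. Coordinates and sequences came from GENCODE M21 on mm10. Protein sequences were not used here, and the planned search of them for motifs was not run.

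Named were members, isoforms of members with at least 20 complete reads in each library and 2 or more used, the 6 unannotated structures ranked by their lower count, and of each pathway list the 4 highest genes and every called gene. The members and lists were chosen with earlier results of these data known. The introns compared for exon skipping were chosen after seeing the data. Single values of 1 member and of some pathway genes are not reported here, and they remain in the counts and sums.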

Additional observations from a re-analysis of the deposited data

Results flagged for a closer look

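Reads on loci outside the 32 genes that carry a Ube2 name or span one of the genes exceeded the limit that a count of 0 allows, 3 counts, at 3 places. Ube2d-ps, a transcribed pseudogene of the Ube2d family at chr11:5762129-5784710, had 31 reads in replicate 1 and 27 in replicate 2, of which 20 and 18 were on annotated models. Gm20431, the locus annotated across Tmem189 and Ube2v1 at chr2:167607850-167661496, had 18 and 26 reads. All but 1 of them lay on incomplete models that carry Ube2v1 introns and no other, so adding them to Ube2v1 would raise its level. Ube2n-ps1, at chr5:76232612-76233070, had 7 reads in replicate 2 and 0 in replicate 1, and its sequence equals the Ube2n coding sequence over 456 bases, so the placement of these reads is uncertain.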

How the results depend on the processing

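Called members were 0 of 30 with library totals, 0 of 32 with no read filter and 0 of 28 over complete models. Of all genes tested, 356 of 8940 (3.98%), 301 of 14198 (2.12%) and 324 of 7436 (4.36%) were called there. With TMM sizes and with DESeq2 size factors 2 of 30 members were called, and among genes with at least 50 reads 3 of 23. Of all genes tested, 388 of 8940 (4.34%), 382 of 8940 (4.27%) and 406 of 4739 (8.57%) were called, in the same order. The summed level rose from 4171 to 4468 CPM over complete models alone, where CPM were taken over complete-model reads. It was 4138 to 4204 CPM with 1 library left out. Members with 2 or more used transcripts numbered 4 at 10%, 8 at 5%, 2 at 20%, and 6 with either library left out. With ISM models as transcripts of their own, isoform use was called in 1 member and in 125 of 4503 genes (2.78%). Over complete models it was called in 0 members and in 4 of 4011 genes (0.0997%). Unannotated structures seen in both libraries numbered 16 at 3 reads and 3 at 10 reads, instead of 7. The log2 ratio turned sign in genes near 0: in Ube2d3 with TMM sizes (-0.011), DESeq2 size factors (-0.071) and complete models (-0.0048), in Ube2v1 with DESeq2 size factors (-0.048), and in Ube2m with complete models (0.47). The cause was not tested. Single-gene levels moved by more than the spread between libraries in 17 of 32 members over complete models alone, where the totals divided by changed too. None moved with TMM sizes, whose factors of 0.987 and 1.01 leave a mean over both libraries nearly unchanged. With 2 libraries, small differences were not detectable at this depth. No paired analysis was possible because there is 1 group.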
